A study of Mus musculus with 6 samples.

Results

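To describe the machinery that senses endoplasmic reticulum (ER) stress in the colon, 10 genes were followed in RNA-seq counts from mice with and without NSD2 in the intestinal epithelium. The genes were chosen by name and by role, but with earlier results of these data known. The study had already reported Ern1 as lower after NSD2 knockout. They encode the stress sensors IRE1 alpha (Ern1), IRE1 beta (Ern2), PERK (Eif2ak3), ATF6 (Atf6) and ATF6 beta (Atf6b), the transcription factor XBP1 (Xbp1), the OASIS family members OASIS (Creb3l1) and BBF2H7 (Creb3l2), and the site 1 and site 2 proteases (Mbtps1 and Mbtps2). All 10 were among the 24517 genes listed in the count tables, and all 10 were among the 16347 genes with enough reads to be tested.

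The colon libraries comprised 3 replicates labelled NSD2fl/fl and 3 labelled NSD2∆IE. The NSD2fl/fl mice carried the floxed Nsd2 alleles and served as controls. The NSD2∆IE mice carried the same alleles with a Villin-Cre transgene, which removes NSD2, a methyltransferase for lysine 36 of histone H3, in epithelial cells, while the muscle, connective tissue, nerves and immune cells of the colon kept the gene. Both groups shared the C57BL/6J background given in the methods of the study and a high-fat, high-cholesterol diet (HFCD), which the labels put at 16 weeks and the methods at a longer time, and no group on another diet was analysed here. The methods name male littermates. However, Xist, the RNA of the inactive X chromosome, had at most 4 counts in the NSD2fl/fl libraries and from 21217 to 24234 in the NSD2∆IE libraries, and 4 Y-linked genes had from 5058 to 6110 counts together in NSD2fl/fl libraries and at most 1 in NSD2∆IE libraries. Genotype and this sex-linked difference cannot be told apart in any comparison of the groups.

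The library totals lay between 38041832 and 38604680 counts. Nsd2 had 1840, 2091 and 2455 counts in NSD2fl/fl replicates 1, 2 and 3, and 972, 914 and 1139 counts in the NSD2∆IE replicates. The libraries also differed in a way that the groups do not explain. Hoxb13, a homeobox gene of the distal colon, stood at 365, 340.5 and 310.01 CPM (counts scaled by TMM to a shared library size) in NSD2fl/fl replicates 1 and 3 and NSD2∆IE replicate 1, and at 0.706, 4.97 and 26.2 CPM in NSD2fl/fl replicate 2 and NSD2∆IE replicates 2 and 3. The leading principal component (51.0% of the variance) separated the same 3 libraries from the other 3. The site along the colon from which each sample came was not given in the sources used here.

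IRE1, PERK and ATF6 span the ER membrane and respond when unfolded proteins build up in its lumen. IRE1 cuts an unconventional intron out of the Xbp1 mRNA, PERK phosphorylates the translation factor eIF2 alpha, and ATF6 travels to the Golgi, where the site 1 and site 2 proteases release its active part. Members of the OASIS family are activated by the same cleavage. IRE1 alpha is found in most tissues, whereas IRE1 beta belongs to the mucus-producing epithelium of the gut and airway, and OASIS is known in the colon for its part in goblet cell maturation.

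The sequence that links both IRE1 genes to XBP1 lies in exon 4 of Xbp1, in its coding sequence, on the plus strand of chromosome 11 in mm10. It is shown because it is the substrate on which these sensors act. Capitals mark the 26-base intron at chr11:5524279-5524304, which IRE1 removes at 2 CNGCNG motifs, and the flanks in lower case complete the window chr11:5524268-5524316.
Xbp1 IRE1 site: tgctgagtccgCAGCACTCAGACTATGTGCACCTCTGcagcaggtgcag
The CNGCNG pattern occurred 23 times in the transcript, and 1 other pair, in exon 1, had the same spacing. A gene-level count adds the spliced and unspliced forms of Xbp1, so the values below say how much Xbp1 mRNA was present and not how much of it had been cut.

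The region before the gene start is shown for the member whose group means lay farthest apart, Ern1, and for the member whose groups did not overlap, Eif2ak3. Both are the 250 bases upstream of the RefSeq start in GRCm38.p6, which is the mm10 build. Capitals mark CCACG in the window of Ern1 (chr11:106487797-106488046, minus strand) and CCAAT in the window of Eif2ak3 (chr6:70844265-70844514, plus strand), on either strand, so that a match on the other strand reads ATTGG.
Ern1 upstream region: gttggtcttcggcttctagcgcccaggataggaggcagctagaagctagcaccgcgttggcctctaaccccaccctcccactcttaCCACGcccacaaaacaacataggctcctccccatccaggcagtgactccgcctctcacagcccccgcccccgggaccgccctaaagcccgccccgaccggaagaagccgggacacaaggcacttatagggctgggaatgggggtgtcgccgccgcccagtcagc
Eif2ak3 upstream region: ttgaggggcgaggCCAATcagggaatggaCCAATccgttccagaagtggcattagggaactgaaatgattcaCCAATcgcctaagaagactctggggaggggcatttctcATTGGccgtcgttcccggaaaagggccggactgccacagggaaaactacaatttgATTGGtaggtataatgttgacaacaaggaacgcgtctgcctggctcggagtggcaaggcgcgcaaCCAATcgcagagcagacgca
The pattern CCAAT is bound by the factor NF-Y, CCACG follows it after 9 bases of any kind in the ER stress response element, and TGACG is the core of sites of the CREB and ATF family. Of the 10 genes, 7 had an upstream region in the RefSeq table, and Ern2, Atf6 and Creb3l1 did not. CCAAT was present in 3 of the 7, against 33.8% of 32851 upstream regions of the same length. Eif2ak3 held 6 matches, Creb3l2 held 2 and Atf6b held 1. CCACG was present in 2 of the 7, Ern1 and Mbtps1, against 28.3% of all regions, and TGACG in 2, Creb3l2 and Mbtps1, against 17.8%. The full response element was in none of the 7 and in 0.113% of all regions. The windows of Xbp1 and Mbtps2 held none of these letters.

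Levels were first compared between genes, per length of the gene model, as the FPKM values that the authors deposited (read density along a gene model, set against the library total). Xbp1 stood highest, with a mean of 166 FPKM over the 6 libraries and a range from 151 to 212. Creb3l1 followed with a mean of 101 FPKM and a range from 74.5 to 126. Next came Mbtps1 with a mean of 30.7 FPKM, Ern2 with 29.7 and Atf6b with 24.7. The ranges of neighbours in this order did not overlap between Xbp1 and Creb3l1 or between Creb3l1 and Mbtps1, but they overlapped for Mbtps1 and Ern2, where Mbtps1 was the higher of the pair in 3 of 6 libraries, and for Ern2 and Atf6b, where Ern2 was higher in 5.

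The lower part of the order held Eif2ak3 with a mean of 11.3 FPKM, Atf6 with 9.86, Ern1 with 7.74, Creb3l2 with 4.79 and Mbtps2 with 2.95. Eif2ak3 exceeded Atf6, Atf6 exceeded Ern1 and Ern1 exceeded Creb3l2 in each of the 6 libraries, although their ranges over libraries overlapped. The epithelial sensor Ern2 was thus present at a higher level per length than the ubiquitous Ern1. Ern2 made up 77.5%, 75.8% and 78.9% of the summed FPKM of both IRE1 genes in NSD2fl/fl replicates 1, 2 and 3, and 80.3%, 80.5% and 82.9% in the NSD2∆IE replicates. Within the other pairs, Creb3l1 took from 94.98% to 95.997% of the sum with Creb3l2, Mbtps1 from 88.6% to 92.4% of the sum with Mbtps2, and Atf6b from 67.6% to 74.2% of the sum with Atf6. These shares depend on the gene lengths behind FPKM, 8186 bases for Atf6 and 2566 for Atf6b, and 7027 for Ern1 and 3118 for Ern2. By counts alone, Atf6 exceeded Atf6b in each of the 6 libraries, with log2 ratios from 0.15 to 0.62.

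**Figure D1:**
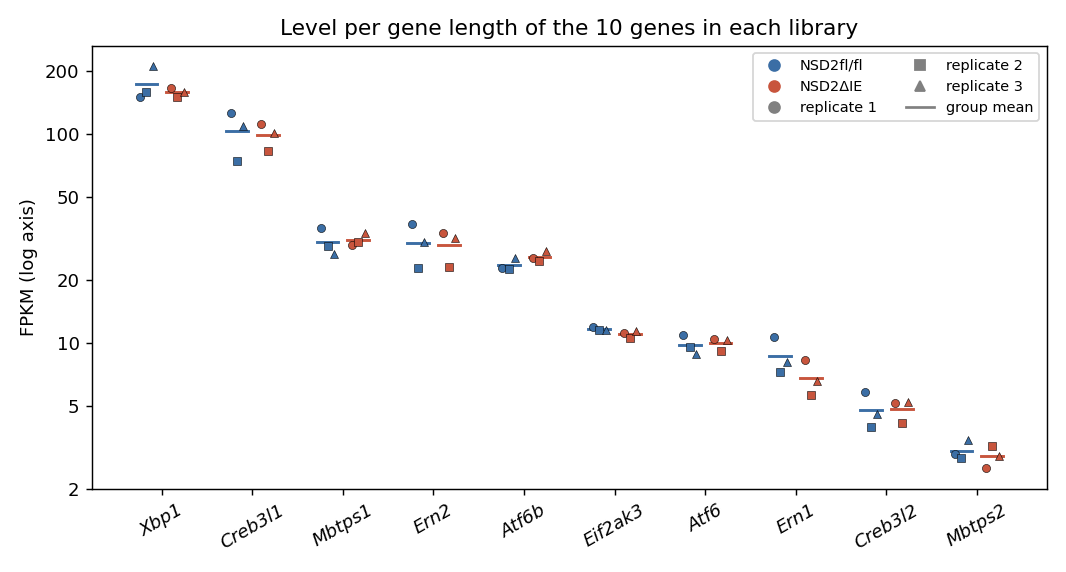
FPKM of the 10 genes on a log axis, with 1 point per library, colours for NSD2fl/fl and NSD2∆IE, marker shapes for the replicate and a bar for the mean of each group (n = 3). The genes spread from 2.95 FPKM for Mbtps2 to 166 FPKM for Xbp1 in their means over the 6 libraries, while the groups of each gene lie close together.

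The groups were then compared in the count model, with levels given as TMM-scaled CPM. None of the 10 genes had an adjusted p under 0.05 in edgeR's quasi-likelihood test, where 0.0306% of all genes tested passed. None did in DESeq2, where 2.79% of all genes passed. In edgeR every gene that passed was sex-linked, namely Xist or one of the Y-linked genes counted above. Nsd2, the targeted gene, had a log2 fold change of -1.23 and an adjusted p of 0.302 in edgeR. Since this test did not call Nsd2 either, a member without a call cannot be taken as unchanged. At an unadjusted p under 0.05, 1 of the 10 passed, Ern1, against 11.1% of all genes. The same gene was the only member past the threshold used in the study (p under 0.05 before adjustment and a log2 fold change beyond 0.32) in the lower direction, which 2.21% of all genes passed, and none was past it in the higher direction, which 8.05% passed. The groups did not overlap for 1 of the 10, Eif2ak3, against 18.7% of all genes in either direction and 7.28% in the lower one. The fitted log2 fold change was below 0 for all 10 with TMM scaling, against 56.3% of all genes, but for 6 of 10 when counts were scaled by library totals alone. With library totals the median of all genes was itself 0.09, and 9 of the 10 lay below the median of all genes under both scalings. With TMM scaling the median of the 10 was -0.16 against -0.04 over all genes tested. The median of the 10 was -0.07 without NSD2fl/fl replicate 1 and -0.09 without NSD2∆IE replicate 2, where that of all genes was -0.04.

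IRE1 alpha, the sensor kinase and RNase encoded by Ern1 on chromosome 11, differed most between the groups. Ern1 stood at 74.2, 55.3 and 60.9 CPM in NSD2fl/fl replicates 1, 2 and 3 and at 56.3, 38.4 and 42.6 CPM in the NSD2∆IE replicates. The groups overlapped by 1 library on each side, since NSD2∆IE replicate 1 exceeded NSD2fl/fl replicate 2. The means were 63.5 ± 9.70 CPM and 45.8 ± 9.38 CPM (SD, n = 3), and the log2 fold change was -0.47 (SE 0.182, 95% confidence interval -0.90 to -0.04), with an adjusted p of 0.420 (0.0372 unadjusted) in edgeR's quasi-likelihood test. The fold change stayed below 0 without any single library, between -0.64 and -0.35. The unadjusted p was 0.116 without NSD2fl/fl replicate 1, 0.0681 without NSD2fl/fl replicate 3, 0.117 without NSD2∆IE replicate 2 and 0.11 without NSD2∆IE replicate 3, so the single call rested on each of these libraries. It was 0.12 with library totals and 0.281 with factors set by 8 epithelium markers.

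IRE1 beta, encoded by Ern2 on chromosome 7, is best known from goblet cells, where it has been linked to the handling of mucin mRNA. Ern2 stood at 114, 76.9 and 101 CPM in NSD2fl/fl replicates 1, 2 and 3 and at 102, 70.1 and 92.03 CPM in the NSD2∆IE replicates. Replicate 2 was the lowest of its group in both groups, and the ranges overlapped for most of their length. The means were 97.1 ± 18.6 CPM and 87.998 ± 16.3 CPM, and the log2 fold change was -0.14 (SE 0.195, interval -0.61 to 0.32), with an adjusted p of 0.811 (0.491 unadjusted) in edgeR. The interval includes no change as well as a fall as large as the estimate for Ern1, and the estimate lay between -0.29 without NSD2fl/fl replicate 2 and -0.002 without NSD2∆IE replicate 2.

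A ratio of counts within a library does not depend on the scaling between libraries. It was used to ask whether paralogs, or the genes of the protease pair, moved apart. The log2 ratio of Ern1 to Ern2 was -0.61, -0.47 and -0.73 in NSD2fl/fl replicates 1, 2 and 3 and -0.85, -0.87 and -1.11 in the NSD2∆IE replicates. All 3 NSD2∆IE ratios lay below all 3 NSD2fl/fl ratios. The difference of -0.34 between the means (-0.61 ± 0.127 and -0.94 ± 0.143, SD, n = 3) gave p = 0.1 in a two-sided exact permutation test, the smallest p that 3 against 3 libraries allow, and an adjusted p of 0.4 over the 4 pairs examined by the same permutation test. The difference lay between -0.40 and -0.26 with any single library left out. The same permutation test gave p = 0.2 without NSD2∆IE replicate 3 and p = 0.1 without any other library.

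For the other pairs the ratios of both groups overlapped. The mean log2 ratio in NSD2∆IE libraries minus that in NSD2fl/fl libraries was -0.10 for Atf6 to Atf6b, -0.07 for Creb3l1 to Creb3l2 and 0.14 for Mbtps1 to Mbtps2. The two-sided exact permutation test gave p = 0.6, 0.6 and 0.7, each 0.7 after adjustment over the 4 pairs. Among NSD2fl/fl libraries alone, the ratio of Mbtps1 to Mbtps2 spread from 2.89 in replicate 3 to 3.53 in replicate 1, which is wider than the gap between the group means.

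**Figure D2:**
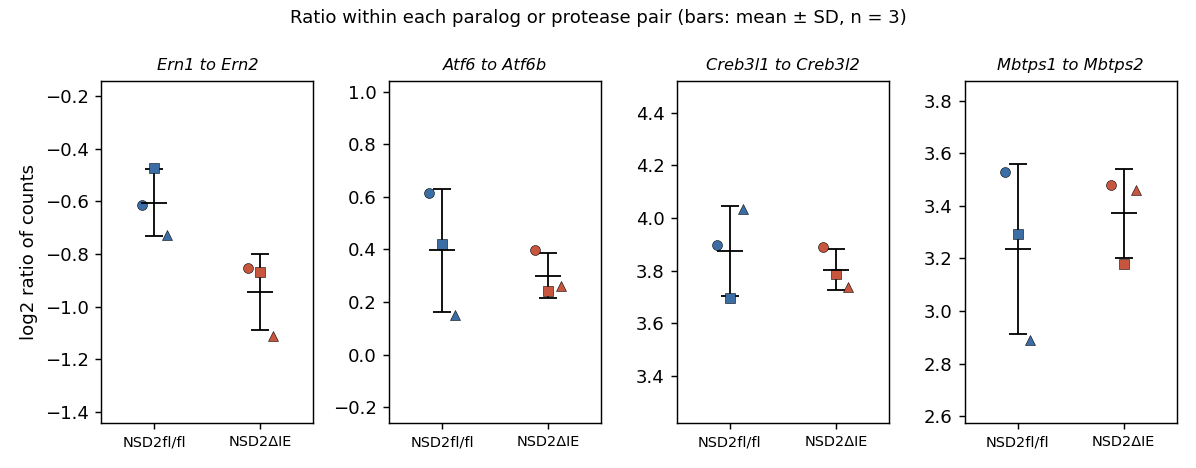
Log2 ratio of counts within each of 4 gene pairs, with 1 point per library, marker shapes for replicates 1 to 3 (circle, square, triangle) and bars for the mean and SD of each group (n = 3). Each panel spans the same height on the log2 scale, and only the panel of Ern1 to Ern2 shows all NSD2∆IE points below all NSD2fl/fl points.

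PERK, the eIF2 alpha kinase encoded by Eif2ak3 on chromosome 6, varied least of the sensors. Eif2ak3 stood at 57.5, 60.5 and 59.9 CPM in NSD2fl/fl replicates 1, 2 and 3 and at 52.5, 50.1 and 51.2 CPM in the NSD2∆IE replicates. All 3 NSD2∆IE libraries lay below all 3 NSD2fl/fl libraries, and the highest and lowest libraries differed by 1.21-fold. The means were 59.3 ± 1.603 CPM and 51.3 ± 1.21 CPM, and the log2 fold change was -0.21 (SE 0.0886, interval -0.42 to 0.000696), with an adjusted p of 0.450 (0.0506 unadjusted) in edgeR. With factors set by 8 epithelium markers in place of TMM, the log2 fold change was -0.05 and the groups overlapped. The annotation places a small nucleolar RNA gene on the same strand and a transcript to be experimentally checked on the opposite strand within Eif2ak3, and whether reads were counted by strand was not given in the sources used here.

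The ATF6 branch showed smaller differences. Atf6, on chromosome 1, stood at 88.1, 84.2 and 77.4 CPM in NSD2fl/fl replicates 1, 2 and 3 and at 83.4, 72.5 and 78.3 CPM in the NSD2∆IE replicates. The groups overlapped, and the log2 fold change was -0.09 (SE 0.105, interval -0.34 to 0.16, edgeR adjusted p 0.771). Atf6b, which encodes the weaker activator of both ATF6 proteins and lies on chromosome 17, stood at 57.5, 62.9 and 69.7 CPM in the NSD2fl/fl replicates and at 63.2, 61.3 and 65.4 CPM in the NSD2∆IE replicates. The NSD2∆IE values lay inside the range of the NSD2fl/fl values, with means of 63.4 ± 6.09 CPM and 63.3 ± 2.04 CPM. The log2 fold change of Atf6b was -0.00098 (interval -0.26 to 0.25), which lies within the log2 fold change of 0.32 that the study set as its limit, in either direction.

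The proteases that cleave ATF6 and the OASIS proteins were examined next. Mbtps1, the site 1 protease gene on chromosome 8, stood at 159.8, 143 and 129 CPM in NSD2fl/fl replicates 1, 2 and 3 and at 131, 135 and 141 CPM in the NSD2∆IE replicates. All NSD2∆IE values again lay within the NSD2fl/fl range, and the log2 fold change was -0.09 (SE 0.117, interval -0.37 to 0.19, edgeR adjusted p 0.807). Mbtps2, the site 2 protease gene, is the only X-linked member and the one with the lowest level. It stood at 13.8, 14.6 and 17.5 CPM in the NSD2fl/fl replicates and at 11.8, 14.9 and 12.8 CPM in the NSD2∆IE replicates. The groups overlapped, and the log2 fold change was -0.22 (SE 0.160, interval -0.60 to 0.16, edgeR adjusted p 0.656), between -0.32 without NSD2∆IE replicate 2 and -0.11 without NSD2fl/fl replicate 3. Yy2, a gene of the same strand, lies within Mbtps2, and reads from that stretch cannot be assigned with certainty.

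The OASIS family consists of membrane-bound transcription factors that act in secretory cells. Creb3l1, on chromosome 2, stood at 283, 183 and 265 CPM in NSD2fl/fl replicates 1, 2 and 3 and at 246, 183 and 213 CPM in the NSD2∆IE replicates. Replicate 2 was lowest in both groups, at nearly the same level, and the log2 fold change was -0.19 (SE 0.201, interval -0.67 to 0.29, edgeR adjusted p 0.758), between -0.36 when NSD2fl/fl replicate 2 was left out and -0.07 when replicate 1 of that group was. Creb3l2, on chromosome 6, which supports secretion of matrix in cartilage, stood at 19.0, 14.1 and 16.1 CPM in the NSD2fl/fl replicates and at 16.6, 13.3 and 16.0 CPM in the NSD2∆IE replicates. Its groups overlapped as well, and the log2 fold change was -0.10 (SE 0.165, interval -0.50 to 0.29, edgeR adjusted p 0.837).

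Xbp1, the transcription factor downstream of IRE1, was the most abundant of the 10 genes. It stood at 334, 389 and 508 CPM in NSD2fl/fl replicates 1, 2 and 3 and at 362, 329 and 329 CPM in the NSD2∆IE replicates. NSD2fl/fl replicate 3 stood apart from the other 5 libraries, which lay between 329 and 389 CPM and overlapped between the groups. The means were 410.4 ± 88.9 CPM and 340.1 ± 19.1 CPM, and the log2 fold change was -0.27 (SE 0.180, interval -0.70 to 0.16), with an adjusted p of 0.631 (0.178 unadjusted) in edgeR. Without NSD2fl/fl replicate 3 the log2 fold change was -0.08, and without NSD2fl/fl replicate 1 it was -0.40.

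**Figure D3:**
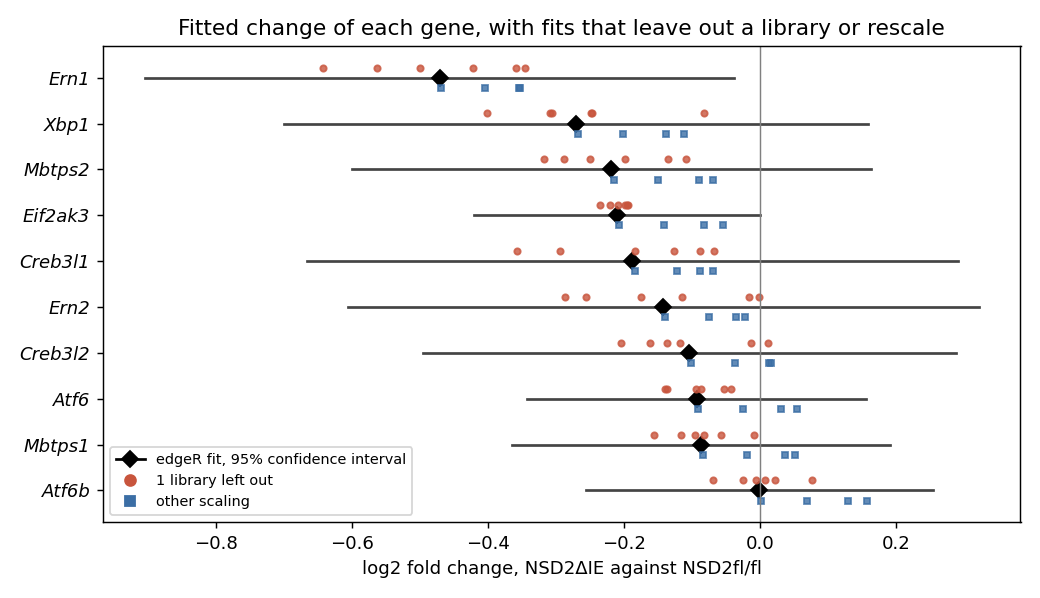
Log2 fold change of each gene in NSD2∆IE against NSD2fl/fl libraries from edgeR with its 95% confidence interval (black), with fits that leave out 1 library (red circles) and fits with other scaling (blue squares: RLE factors, upper-quartile factors, library totals, epithelium marker factors). The interval of Ern1, from -0.90 to -0.04, is the only one that does not include 0.

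The lowest count of any member in any library was 466. All 10 confidence intervals lay within a 2-fold change in either direction, and 5 of them within 1.5-fold. The labels number the replicates without saying whether each came from a separate mouse. The p-values therefore measure only the spread between these samples, and whether that is a spread between mice is not known.

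The members did not vary across libraries in the same way. The highest and lowest of the 6 libraries differed 1.93-fold for Ern1, 1.62-fold for Ern2, 1.55-fold for Creb3l1 and Xbp1, and between 1.21-fold and 1.23-fold for Eif2ak3, Atf6, Atf6b and Mbtps1. Ern1, Ern2, Creb3l1 and Creb3l2 were each higher in all 3 libraries of high Hoxb13 than in all 3 of low Hoxb13, a pattern that 12.8% of all genes tested shared. For Ern2 the values were 101 to 114 CPM in the libraries of high Hoxb13 and 70.1 to 92.03 CPM in those of low Hoxb13. For Creb3l1 they were 246 to 283 CPM and 183 to 213 CPM, for Creb3l2 16.1 to 19.0 CPM and 13.3 to 16.0 CPM, and for Ern1 56.3 to 74.2 CPM and 38.4 to 55.3 CPM. The other 6 members overlapped between these libraries.

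Each set of libraries held both genotypes, which allowed the groups to be compared within it, with 1 library against 2 and hence no test. Among the libraries of low Hoxb13, the log2 difference of NSD2∆IE from NSD2fl/fl was -0.45 for Ern1, 0.06 for Ern2, 0.11 for Creb3l1, 0.04 for Creb3l2 and -0.26 for Eif2ak3. Among those of high Hoxb13 it was -0.25 for Ern1, -0.07 for Ern2, -0.16 for Creb3l1, -0.08 for Creb3l2 and -0.16 for Eif2ak3. Ern1, Eif2ak3, Xbp1, Mbtps1 and Mbtps2 were lower in NSD2∆IE within both sets, with -0.24 and -0.19 for Xbp1, whereas Ern2, Atf6, Atf6b, Creb3l1 and Creb3l2 were higher in one set and lower in the other. With the score on the first principal component as a covariate, the log2 fold change was -0.35 for Ern1 (unadjusted p 0.0304, adjusted p 0.264 in edgeR) and 0.02 for Ern2.

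**Figure D4:**
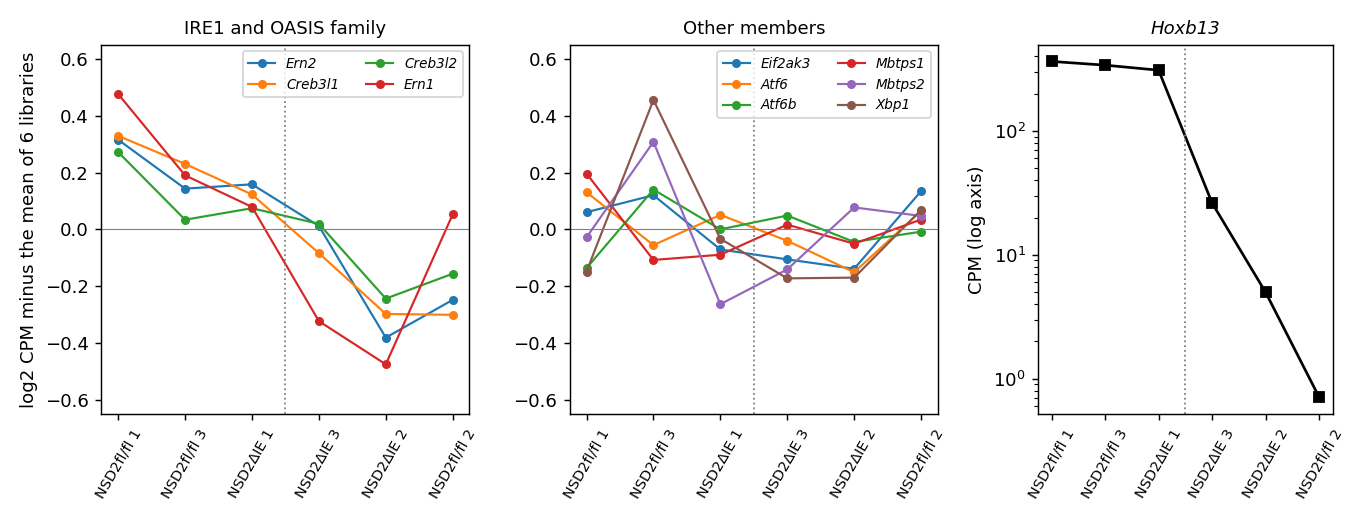
Log2 CPM of each member minus its mean over the 6 libraries (left and middle panels) and CPM of Hoxb13 on a log axis (right panel), with libraries ordered by Hoxb13 and a dotted line between the 3 high and the 3 low ones. Ern2, Creb3l1, Creb3l2 and Ern1 lie higher left of the line than right of it, from 101 to 114 CPM against 70.1 to 92.03 CPM for Ern2, while the other members cross it without such a step.

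The likeness of 2 patterns was measured as the root mean square difference of centred log2 CPM over the 6 libraries. Ern2 and Creb3l1 were the most alike pair of members, with a difference of 0.0679, followed by Atf6 and Mbtps1 with 0.0822 and Ern2 and Creb3l2 with 0.0926. Among 10698 genes with an average log2 CPM of at least 3, Creb3l1 ranked 10 in likeness to Ern2, and Creb3l2 ranked 46. Ern1 ranked 1486 in likeness to Ern2, with a difference of 0.200, and both IRE1 genes were highest in NSD2fl/fl replicate 1 and lowest in NSD2∆IE replicate 2. The 5 genes most like Ern2 were Ccdc9, Rrnad1, Ccdc88c, Mcoln2 and Gne, with differences from 0.0417 to 0.0556 against a median of 0.296 over all genes compared. The 5 most like Creb3l1 were Lnpk, Atp8a1, Dlat, Sike1 and Nedd1, from 0.0445 to 0.0528, and the 5 most like Ern1 were Elk4, Sowahc, Cpd, Gm9917 and Myo10, from 0.0508 to 0.0711. These values describe 6 libraries that share the differences named above, and no test was made of them.

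Markers of the cell types in the colon were summed beside the members. In bulk tissue, fewer cells of a type and less RNA per cell cannot be told apart. The 8 goblet cell markers, none of them at 0, summed to between 28475 and 50597 CPM in NSD2fl/fl and between 19850 and 31086 CPM in NSD2∆IE libraries, with 5 of 8 fitted below 0, and the sum was lowest in replicate 2 of each group. Of the members, Ern1, Ern2, Creb3l1 and Creb3l2 were lowest in replicate 2 of both groups, as were 18.8% of all genes tested. Only 2 of the 8 markers, Clca1 and Fcgbp, shared this order, whereas Muc2, the main gel-forming mucin, stood at 16260.4 CPM in NSD2fl/fl replicate 2 and at 6340 and 5176 CPM in the other two libraries of its group. These 3 markers were named after their values were seen. Set against the mean log2 level of the goblet cell markers, the range over the libraries was narrower than that of the gene's own log2 CPM for 4 members and wider for 6. It was 0.67 against 0.95 for Ern1, 0.55 against 0.70 for Ern2, 0.48 against 0.63 for Creb3l1 and 0.52 against 0.63 for Xbp1. Of the wider ones, it was 0.65 against 0.52 for Creb3l2, 0.69 against 0.27 for Eif2ak3 and 0.83 against 0.28 for Atf6. For Atf6b it was 0.74 against 0.28, for Mbtps1 0.98 against 0.30 and for Mbtps2 0.84 against 0.57. The mean difference of NSD2∆IE from NSD2fl/fl on this scale was 0.17 for Ern2 and -0.17 for Ern1. The 8 epithelium markers summed to between 9439 and 15391 CPM in NSD2fl/fl and between 9087 and 10532 CPM in NSD2∆IE libraries, with 7 of 8 fitted below 0 and none past the threshold of the study. Against the mean log2 level of these markers, every member had a wider range over the libraries than in its own log2 CPM. Relative to these markers Ern1 differed by -0.29 and Eif2ak3 by -0.03 on the log2 scale. Set against plasma cell markers in the same way, Ern1 differed by 0.03, Ern2 by 0.37 and Eif2ak3 by 0.30. Against fibroblast markers these genes differed by -0.64, -0.31 and -0.37. Of all members, the groups did not overlap for Ern2 and Creb3l1 against plasma cell markers, or for Ern1, Eif2ak3, Mbtps1 and Mbtps2 against fibroblast markers. Against goblet cell and epithelium markers the groups overlapped for every member. The share of all genes without overlap on these scales was not computed, so no weight can be put on these separations.

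Markers of other tissue layers had larger fitted changes, none of them with an adjusted p under 0.05 in edgeR. All 6 smooth muscle markers were fitted higher in NSD2∆IE, 5 of them past the threshold of the study, and they summed to between 1338 and 3884 CPM in NSD2fl/fl and between 4832 and 10394 CPM in NSD2∆IE libraries. The count past the threshold was 0 without NSD2∆IE replicate 3, 1 without NSD2∆IE replicate 2 and 2 without NSD2fl/fl replicate 1. The 6 markers of enteric neurons and glia summed to between 36.1 and 58.7 CPM and between 76.4 and 99.2 CPM, with all 6 past the threshold. The 3 tested adipocyte markers, all fitted higher, reached at most 18.6 CPM together in NSD2fl/fl and 27.02 CPM in NSD2∆IE libraries, fibroblast markers were fitted lower for 3 genes and higher for 3, and colonocyte markers lower for 3 and higher for 2. Of the fibroblast markers, Lum and Dcn, named after their values were seen, were past the threshold in the higher direction without overlap, with log2 fold changes of 1.08 and 0.43, and 1 gene was past it without NSD2fl/fl replicate 2 or NSD2∆IE replicate 2. The adjusted p of Lum was 0.302 in edgeR and 0.00694 in DESeq2. The 4 tested plasma cell markers, a cell type that depends on Xbp1, were fitted lower in NSD2∆IE for 4 of 4, 1 past the threshold, and summed to between 1260 and 2333 CPM and between 1033 and 1460 CPM. The count past the threshold was 0 without NSD2fl/fl replicate 3, NSD2∆IE replicate 2 or NSD2∆IE replicate 3, 2 without NSD2∆IE replicate 1 and 3 without NSD2fl/fl replicate 2. NSD2fl/fl replicate 3, the library highest in Xbp1, also had the highest sums of the plasma cell and goblet cell markers. Clca1 made up 27461 of the 50597 CPM of that goblet cell sum. Not all goblet cell markers were highest there, since Muc2 stood at 5176 CPM against 16260 CPM in NSD2fl/fl replicate 2. The part of these markers in the values of the members was not tested.

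The outputs of each branch were then read from lists of other genes of the pathway. XBP1 and ATF6 drive genes for ER chaperones and for degradation of misfolded proteins. All 20 listed genes were fitted below 0, with a median log2 fold change of -0.43 against -0.04 over all genes. None had an adjusted p under 0.05 in edgeR and 1 did in DESeq2, where 2.79% of all genes did. In the lower direction 4 were past the threshold of the study, against 2.21% of all genes. The lowest p belonged to Edem1, which extracts misfolded glycoproteins for degradation, with 235 ± 31.8 CPM in NSD2fl/fl and 167 ± 10.9 CPM in NSD2∆IE libraries and an estimate of -0.50 on the log2 scale (SE 0.137, adjusted p 0.312 in edgeR and 0.0467 in DESeq2). Sel1l, a scaffold of the same degradation machinery, followed with 149.8 ± 17.1 CPM and 114 ± 9.01 CPM and an estimate of -0.40 (SE 0.127, adjusted p 0.344 in edgeR).

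The summed level of these 20 genes was 4147, 5676 and 9010.04 CPM in NSD2fl/fl replicates 1, 2 and 3 and 4670, 4086 and 4422 CPM in the NSD2∆IE replicates. NSD2fl/fl replicate 1, the library highest in Ern1 and Ern2, lay within the NSD2∆IE range, and NSD2fl/fl replicate 3, the highest in Xbp1, had the largest sum. Without NSD2fl/fl replicate 3 the median log2 fold change of the list was -0.14 and 1 gene was past the threshold of the study, against 2.68% of all genes. Without NSD2fl/fl replicate 1 the median was -0.58 and 17 were past it, in a fit where 4.48% of all genes were. The count of such genes was 3 without NSD2fl/fl replicate 2, 2 without NSD2∆IE replicate 1, and 1 without NSD2∆IE replicate 2 or 3. Of all genes, 3.57%, 3.72%, 1.17% and 0.879% were past it in these fits, in the same order. The count was 1 with library totals and 0 with factors set by epithelium markers, where 0.869% and 0.483% of all genes were past it. Under each, 19 of the 20 genes were fitted below 0.

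**Figure D5:**
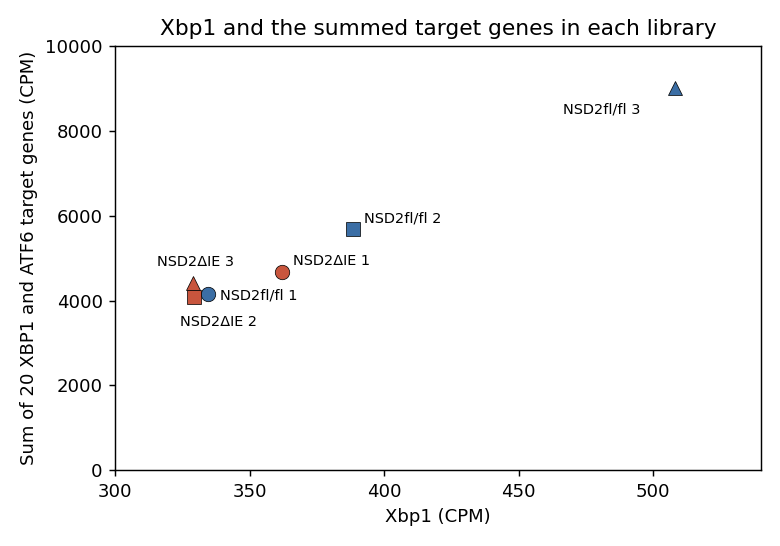
Summed CPM of 20 target genes of XBP1 and ATF6 (vertical) against CPM of Xbp1 (horizontal, on an axis that does not start at 0), with 1 labelled point per library, blue for NSD2fl/fl and red for NSD2∆IE. NSD2fl/fl replicate 3 lies far to the upper right at 508 and 9010.04 CPM, and NSD2fl/fl replicate 1 lies among the NSD2∆IE libraries.

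In the remaining lists the fitted values lay on both sides of 0. Of 9 genes induced through PERK, 6 were fitted below 0 and 3 above, with a median of -0.11 and none past either threshold. The median turned to 0.22 without NSD2fl/fl replicate 2, 0.17 with epithelium marker factors and 0.04 with library totals. That of all genes was -0.03, 0.11 and 0.09 in these fits, in the same order. The lowest p were those of the transcription factor gene Atf5, with a log2 fold change of 0.21 (edgeR p 0.120, adjusted p 0.570), and of Ppp1r15a, which restores translation, with 0.27 (p 0.150, adjusted p 0.601). The other 3 eIF2 alpha kinases, Eif2ak1, Eif2ak2 and Eif2ak4, had log2 fold changes of -0.18, -0.14 and 0.14, the eIF2 alpha gene Eif2s1 had -0.25 and the phosphatase subunit gene Ppp1r15b had -0.10, with adjusted p from 0.629 to 0.842 in edgeR.

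Of 10 partners and substrates of IRE1, 7 were fitted below 0 and 3 above, with a median of -0.11 and none past either threshold. Bloc1s1, whose mRNA IRE1 cleaves for decay, had a log2 fold change of 0.23 (edgeR p 0.0634, adjusted p 0.477), and Traf2, the adaptor that joins IRE1 alpha to JNK signalling, had -0.20 (p 0.0813, adjusted p 0.512). Of 9 cofactors and other substrates of the proteases, 5 were fitted below 0 and 4 above, with a median of -0.06. Creb3l3, a liver and intestine relative of OASIS, was past the threshold of the study, with 5.20 ± 3.34 CPM in NSD2fl/fl and 10.9 ± 2.67 CPM in NSD2∆IE libraries and an estimate of 1.08 (SE 0.444, edgeR p 0.0471, adjusted p 0.441). That call was absent without NSD2fl/fl replicate 1 or 3 or any one NSD2∆IE library. Gnptab, which marks lysosomal enzymes for transport, had -0.43 (p 0.127, adjusted p 0.578). The 4 genes known as targets of the OASIS family in bone and cartilage, Sec23a, Sec24d, Col1a1 and Col1a2, had log2 fold changes of -0.13, -0.08, -0.11 and 0.04, with adjusted p from 0.772 to 0.927 in edgeR. The medians of the lists for IRE1 partners and for the proteases turned to 0.02 and 0.08 with library totals, 0.11 and 0.14 with epithelium marker factors, and 0.05 and 0.06 without NSD2fl/fl replicate 2. The median of all genes was 0.09, 0.11 and -0.03 in these fits, in the same order.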

How the data were processed

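RNA was extracted from mouse colon with TRIzol and sequenced, and the 6 libraries were grouped by genotype as given in the labels, 3 NSD2fl/fl and 3 NSD2∆IE. Per the labels and the submitters' processing notes, the tools were fastp, HISAT2, HTSeq and R 3.2.0, and the build was mm10. The annotation and the strand setting were not given in the sources used here. The authors deposited raw counts per gene for each library. The authors also deposited FPKM values per gene, which equalled the counts divided by gene length and library total, so that FPKM carries no scaling between libraries beyond the total. The members and gene lists were chosen with earlier results of these data known.

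The count model was edgeR 4.0.16, run in R 4.3.3. Low counts were removed with filterByExpr, libraries were scaled by TMM, and the two-sided quasi-likelihood test was fitted on all 16347 genes without covariates, with Benjamini-Hochberg adjustment over all of them. CPM values carry the TMM factors. Log2 ratios within libraries used a prior count of 0.5 and a two-sided exact permutation test. The fit was tested on simulated data. Every member was named. From each pathway list the 2 genes of lowest p were named, with all genes of lists of 5 or fewer, and the 5 genes most like Ern1, Ern2 and Creb3l1. Igha and Lep of the marker lists were not analysed here. Alternatives were RLE, upper-quartile and epithelium marker factors, library totals, DESeq2 1.42.0, limma 3.58.1 (voom with quality weights, and log2 FPKM with pseudocounts of 1 and 0.1), no filter, a replicate block, the first principal component score as a covariate, and each library left out. The replicate numbers were checked for pairing. No library was left out, and no 2 libraries held the same counts within sampling noise. Gene positions came from GENCODE M21 and upstream regions from RefSeq, both on the mm10 build. Intervals cover the spread in the model and not differences in tissue sampled.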

Additional observations from a re-analysis of the deposited data

How the results depend on the processing

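No member reached an adjusted p under 0.05 under any of the 17 alternatives, although DESeq2 called 455 genes in all where edgeR called 5. Ern1, Eif2ak3, Xbp1, Creb3l1 and Mbtps2 kept log2 fold changes below 0 under all 17, with Ern1 between -0.64 and -0.31 and an unadjusted p under 0.05 in 8. The count of members past the threshold of the study, 1 for Ern1, was 0 with upper-quartile factors, library totals, epithelium marker factors and log2 FPKM at either pseudocount, and from 0 to 1 with a library left out. Of all genes, from 0.483% to 1.22% were past it in the lower direction under the former settings. The share was from 0.879% to 4.48% with a library left out, against 2.21% in the main fit. The count without overlap was 0 with epithelium marker factors and 1 to 3 with a library left out, where 11.6% and from 21.7% to 35.9% of all genes did not overlap. Library totals moved the median of all genes from -0.04 to 0.09, and epithelium marker factors to 0.11, and 9 of 10 members lay below that median under both, against 6 with the first principal component score as a covariate and 7 without NSD2fl/fl replicate 1 or NSD2∆IE replicate 2. Log2 fold changes turned above 0 with library totals (0.032 for Atf6, 0.13 for Atf6b, 0.017 for Creb3l2, 0.037 for Mbtps1), with epithelium marker factors (0.054, 0.16, 0.013 and 0.051), with log2(FPKM + 1) (0.031, 0.13, 0.021 and 0.044) and with log2(FPKM + 0.1) (0.034, 0.13, 0.027 and 0.045), in the same order of genes. Ern2 turned to 0.019 with the first principal component score as a covariate. Atf6b, at -0.00098, turned to 0.0022 with RLE factors, 0.069 with upper-quartile factors, 0.0023 with DESeq2, 0.000205 with limma-voom and 0.0065 with the component score, and it lay between -0.069 and 0.077 with a library left out. Creb3l2 lay between -0.20 and 0.012, Atf6 between -0.14 and -0.04 and Mbtps1 between -0.16 and -0.008. With a library left out, the ratio difference lay between -0.22 and 0.013 for Atf6 to Atf6b, -0.16 and 0.0076 for Creb3l1 to Creb3l2 and -0.038 and 0.28 for Mbtps1 to Mbtps2. The cause was not tested. Deviations of same-numbered libraries correlated at 0.50, 0.64 and -0.17, so the numbers were not taken as pairs. With a replicate block no member had an adjusted p under 0.05, Ern1 had a log2 fold change of -0.48 (unadjusted p 0.00336, adjusted p 0.309) and Atf6b 0.0028. In the SDs, counting error and the spread between libraries were not separated.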
